A study of Mus musculus with 2 samples.

Results

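The synaptic adhesion genes described here were Nrxn3, Lsamp, Ntm, Clstn2, Adgrl3, Grid1, Sdk2, Cdh18 and Pcdh9, which are 9 of the 31054 features in the count matrices. They were picked by name for how they differed between the libraries and among stellate cells, so the values below describe them and none is tested. Each was measured in hepatic stellate cells (HSCs), in endothelial cells and in Kupffer cells of the same preparations. HSCs were taken as barcodes with at least 15 UMIs (unique molecular identifiers, the counted RNA molecules) of Lrat, Ecm1, Hgf and Reln per 10000. Endothelial cells needed at least 8 of Kdr, Stab2 and Ptprb, and Kupffer cells, the resident macrophages of the liver, at least 8 of Clec4f, Cd5l, Vsig4 and Csf1r. A barcode that met more than 1 of these was set aside. This gave 7852 HSCs of 11149 barcodes in the first library and 6621 of 8806 in the second.

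The study asked how hepatocytes with high p16 (Cdkn2a) expression act on HSCs in liver fibrosis. It profiled HSC preparations of male mice by 10x single-cell RNA sequencing, with 1 library per genotype. The p16-LRTD mice, the controls, carried p16-CreERT2 and the reporter R26-CAG-LSL-RSR-tdTomato-2A-DTR, which needs both Cre and Dre recombination before tdTomato and the diphtheria toxin receptor are made. The p16-Alb-LRTD mice carried Alb-DreERT2 as well, a Dre recombinase driven by the hepatocyte promoter of albumin, so that hepatocytes expressing p16 became sensitive to the toxin. Both groups were on a C57BL/6 background and received carbon tetrachloride (CCl4, a hepatotoxin) for 4 weeks, tamoxifen and diphtheria toxin. HSCs were enriched by enzymatic perfusion and a Nycodenz density gradient, so the endothelial and Kupffer cells seen here are those that came along. The age of the mice and the number that went into each library were not given in the sources used here. With 1 library per genotype there was no replicate check, and every interval below covers counting error only.

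Synaptic adhesion molecules hold the 2 sides of a synapse together and match pre- and postsynaptic partners. Neurexins sit on the presynaptic side and bind neuroligins, leucine-rich repeat proteins and cerebellins, and cerebellins in turn bridge neurexins to delta-type glutamate receptors such as the product of Grid1. Latrophilins bind teneurins and FLRT proteins, while IgLON proteins, sidekicks, cadherins and protocadherins bind through immunoglobulin or cadherin repeats. HSCs store vitamin A in the space between hepatocytes and sinusoids and turn into collagen-producing myofibroblasts after injury, and they are known to express several genes better known from the nervous system, such as Reln and Ngfr.

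The gated classes carried markers that the gates did not use. In HSCs, Dcn, the proteoglycan decorin, stood at 18430 CPM (UMIs of the gene per 1000000 UMIs of the class) in the p16-LRTD library and at 22186 CPM in the other, and Lhx2, a transcription factor of HSCs, at 405 and 355 CPM. The 5 endothelial check genes summed to 5124 and 4637 CPM in endothelial cells, and the 5 Kupffer check genes to 5666 and 7457 CPM in Kupffer cells. There were 430 and 283 endothelial cells and 283 and 178 Kupffer cells. The median depth was 17024.5 and 18136 UMIs in HSCs, 11781 and 11992 in endothelial cells and 19514 and 25101.5 in Kupffer cells. The libraries shared 95 barcodes, 14 of them among the HSCs of both. The 6 neuronal markers summed to 27.5 and 26.4 CPM in HSCs, of which Rbfox3 alone gave 26.8 and 25.9 CPM, and Snap25, Syt1, Tubb3, Elavl4 and Stmn2 were each under 0.3 CPM. The 6 Schwann cell genes summed to at most 3.18 CPM, with Sox10 at 0 in p16-Alb-LRTD, and the 5 hepatocyte genes to 21.6 and 15.5 CPM.

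All 9 genes are long. In the GENCODE vM21 annotation (GRCm38), Lsamp spans chr16:39984361-42181679 on the plus strand, or 2197 kb, and Nrxn3 spans chr12:88722876-90334935 on the plus strand, or 1612 kb. Ntm lies at chr9:28994750-29963141 on the minus strand, and Clstn2 lies on the same chromosome and strand at chr9:97444395-98033181. Adgrl3 is at chr5:81020138-81825133, Grid1 at chr14:34820108-35583379 and Cdh18 at chr15:22549022-23474418, all on the plus strand. Pcdh9 is at chr14:93013410-93890679 and Sdk2, the shortest at 291 kb, at chr11:113776374-114067046, both on the minus strand. Each span covers the exons and introns of the gene. The antisense genes annotated across Lsamp, Ntm, Adgrl3 and Cdh18 were at 1.35 CPM or less in HSCs, and 4921534H16Rik, opposite Clstn2, was at 3.68 CPM in the control and 0.82 CPM in the other library. The count setting for strand is not given in the sources used here.

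Clstn2 and Sdk2 stood on opposite sides of the split described below, and RefSeq lists 1 start site for each. Their promoters are therefore shown as the 250 bases before that start (GRCm38.p6, chr9:98033168-98033417 and chr11:114067030-114067279, both minus strand, 5′ to 3′). Capitals mark the GC box, searched as GGGCGG on both strands.
Clstn2: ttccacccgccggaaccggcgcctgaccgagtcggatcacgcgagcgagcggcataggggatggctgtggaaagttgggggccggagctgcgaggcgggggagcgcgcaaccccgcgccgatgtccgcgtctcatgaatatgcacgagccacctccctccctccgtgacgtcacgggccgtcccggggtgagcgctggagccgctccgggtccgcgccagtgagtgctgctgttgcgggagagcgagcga
Sdk2: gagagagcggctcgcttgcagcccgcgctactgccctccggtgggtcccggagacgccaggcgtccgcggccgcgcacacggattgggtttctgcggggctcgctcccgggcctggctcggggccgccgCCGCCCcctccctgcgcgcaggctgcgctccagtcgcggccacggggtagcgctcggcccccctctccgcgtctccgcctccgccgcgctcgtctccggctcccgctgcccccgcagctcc
Both windows were rich in G and C, at 70.8% and 78.8% against a median of 52.4% over 32851 promoters. The Sdk2 window held 1 GC box and the Clstn2 window none, and 32.7% of all promoters held it in the same window. With the 50 bases after the start included, both promoters held 1, as 35.7% of all promoters held at least 1, so the motif does not set them apart.

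In p16-Alb-LRTD, 6 of the 9 genes were lower in HSCs than in the control and 3 were higher, and Clstn2 and Adgrl3, 2 of the 6, were lower by 2-fold or more. These differences are the ones by which the genes were picked. Among all 10179 genes with at least 5 CPM on average in HSCs, 60.7% were lower to any degree, 0.943% were lower by 2-fold or more and 0.923% were higher by 2-fold or more, or 1.87% in either direction. The median log2 ratio of the 9 genes was -0.52, and that of all genes tested was -0.05. Median-of-ratios scaling moved the median of all genes to 0.00 and the share that was lower to 50.3%, and it left the 6 and 3 directions of the 9 genes as they were. In summed counts, fewer cells of one kind and less RNA per cell cannot be told apart.

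Nrxn3, the presynaptic receptor neurexin 3, measured 1377 CPM in the control HSCs against 1018 CPM in p16-Alb-LRTD, for a log2 ratio of -0.44 (95% interval -0.45 to -0.43). Lsamp, a lipid-anchored IgLON protein, was at 810 and 423 CPM, a log2 ratio of -0.94 (-0.95 to -0.92). Ntm, neurotrimin, another IgLON protein, was at 761 and 532 CPM, a log2 ratio of -0.52 (-0.53 to -0.50). These 3 were each seen in more than 0.5 of the control HSCs, and among them the detection of Lsamp differed most between the libraries. After each cell had been thinned to 5000 UMIs, Lsamp was seen in 59.3% (95% Clopper-Pearson interval 58.2 to 60.4) of 7836 HSCs of p16-LRTD and 42.9% (41.7 to 44.1) of 6614 HSCs of p16-Alb-LRTD.

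Clstn2 encodes calsyntenin 2, a postsynaptic membrane protein with cadherin repeats. It measured 121 CPM (119 to 123) in the control HSCs against 42.6 CPM (41.5 to 43.8) in the p16-Alb-LRTD cells, and its log2 ratio was -1.50 (-1.55 to -1.46). Adgrl3, the adhesion G protein-coupled receptor latrophilin 3, was at 62.9 CPM (61.6 to 64.2) against 18.6 CPM (17.9 to 19.4), a log2 ratio of -1.76 (-1.82 to -1.69). Only 0.481% of the genes tested in HSCs had a lower ratio than Clstn2, and 0.275% a lower ratio than Adgrl3. The share of HSCs with a UMI also differed, at 25.1% and 10.1% for Clstn2 and 18.4% and 5.94% for Adgrl3. Cdh18, a type II cadherin, was at 110 and 71.4 CPM, a log2 ratio of -0.63 (-0.66 to -0.59).

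The genes that were higher in p16-Alb-LRTD were Grid1, Sdk2 and Pcdh9. Grid1, which encodes the delta-type glutamate receptor GluD1, was at 53.7 CPM (52.5 to 54.9) and 82.3 CPM (80.8 to 83.9), a log2 ratio of 0.62 (0.57 to 0.66). Sdk2, the immunoglobulin adhesion protein sidekick 2, was at 60.1 and 74.9 CPM, a log2 ratio of 0.32 (0.28 to 0.36). Pcdh9, a delta protocadherin, was at 168 and 243 CPM, a log2 ratio of 0.53 (0.51 to 0.56). None of the 3 reached a 2-fold difference. Of the genes tested in HSCs, 97.2% had a lower ratio than Grid1 and 92.7% a lower ratio than Sdk2.

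**Figure D1:**
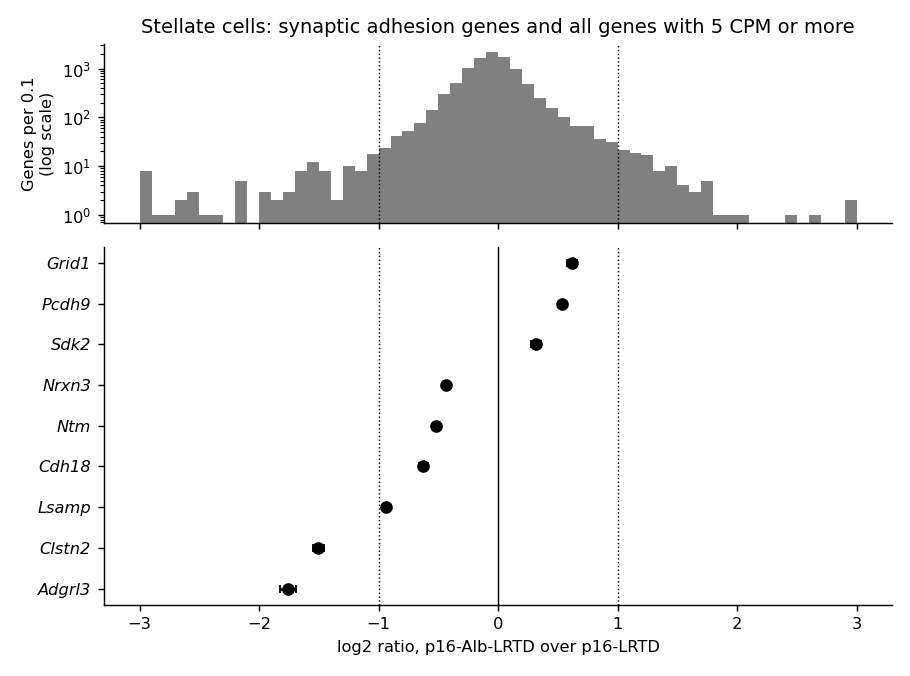
The lower panel shows the log2 ratio of p16-Alb-LRTD over p16-LRTD in HSCs for each of the 9 genes, with 95% counting intervals, and the upper panel the number of genes per 0.1 of the ratio (log scale) among 10179 genes, with values beyond 3 in either direction placed at 3. Dotted lines mark a 2-fold difference, which only Adgrl3 and Clstn2 pass.

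The HSC gate had few cells at its edge. There were 17 and 11 barcodes with 12 to 15 gate UMIs per 10000 and 23 and 15 with 15 to 18. Nrxn3 was at 90.9 and 342 CPM in those just outside and 373 and 307 CPM in those just inside, and Pcdh9 at 364 and 122 CPM outside and 274 and 242 CPM inside.

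Most of these genes were measured mainly in HSCs. In p16-LRTD, Nrxn3 was 88.3-fold higher in HSCs than in endothelial cells (95% interval 72.3 to 109) and 210-fold higher than in Kupffer cells (154 to 295). Lsamp was 151-fold and 241-fold higher, and Cdh18 113-fold and 218-fold. In p16-Alb-LRTD the same ratios were 73.8 and 123 for Nrxn3, 105 and 210 for Lsamp and 94.8 and 79.8 for Cdh18. Sdk2 had the narrowest gap to endothelial cells in both libraries, at 8.04-fold and 11.1-fold. Without thinning, Nrxn3 was seen in 95.1% and 89.5% of HSCs, in 13.3% of endothelial cells of the control and in 12.4% and 20.8% of Kupffer cells. Thinned to 5000 UMIs, the same shares were 88.2% and 80.3% in HSCs, 6.70% and 4.24% in endothelial cells and 3.96% and 6.78% in Kupffer cells. Dcn, the HSC marker, was at 319 and 258 CPM in endothelial cells and 241 and 222 CPM in Kupffer cells, and the part of free HSC RNA in the Nrxn3 UMIs of these classes was not tested.

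Adgrl3 was the exception, since it was higher in Kupffer cells than in HSCs. Kupffer cells held 227 CPM (215 to 239) of it in the control and 171 CPM (159 to 183) in p16-Alb-LRTD, and it was at 1.30 and 0.50 CPM in endothelial cells. It was seen in 42.1% and 28.8% of Kupffer cells thinned to 5000 UMIs. The log2 ratio between libraries in Kupffer cells was -0.41 (-0.54 to -0.28), lower in p16-Alb-LRTD as in HSCs but smaller, and it ranged from -0.88 in cells of intermediate depth to -0.20 with barcodes that pass several gates kept. The difference between these 2 ratios was not tested. In Kupffer cells 57.6% of 9514 genes were lower in p16-Alb-LRTD to any degree, and 1.87% were lower and 1.7% higher by 2-fold or more (3.57% in either direction), and 13.6% had a ratio below that of Adgrl3. The Kupffer gate genes summed to 13.2 and 12.1 CPM in HSCs, beside Adgrl3 levels of 62.9 and 18.6 CPM there, and the part of free Kupffer RNA in those levels was not tested.

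Beyond Adgrl3 the other cell classes gave little to compare. In Kupffer cells the other 8 genes were between 0 and 8.27 CPM, and Clstn2 had 6 UMIs in p16-LRTD and 0 in p16-Alb-LRTD, a level at least 1.5-fold lower when 3 counts are put in place of 0. In endothelial cells 3 of the 9 passed 5 CPM on average, namely Nrxn3, Sdk2 and Pcdh9. Nrxn3 was at 15.6 and 13.8 CPM there, with an interval of the log2 ratio from -0.68 to 0.32, and Sdk2 at 7.47 and 6.78 CPM, with an interval from -0.88 to 0.58. Both intervals take in no difference, and neither direction was stable. With gate thresholds doubled the ratios were -1.19 for Nrxn3 and -0.51 for Sdk2, and with barcodes that pass several gates kept they were 0.11 and 0.37. Pcdh9 was at 12.0 against 1.26 CPM there, but 63 of its 74 UMIs in p16-LRTD came from 2 cells, in which Dcn stood at 4187 CPM. Among all 9855 genes tested in endothelial cells, 60.3% were lower to any degree, 3.62% were lower and 2% higher by 2-fold or more, and 5.62% passed 2-fold in either direction.

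**Figure D2:**
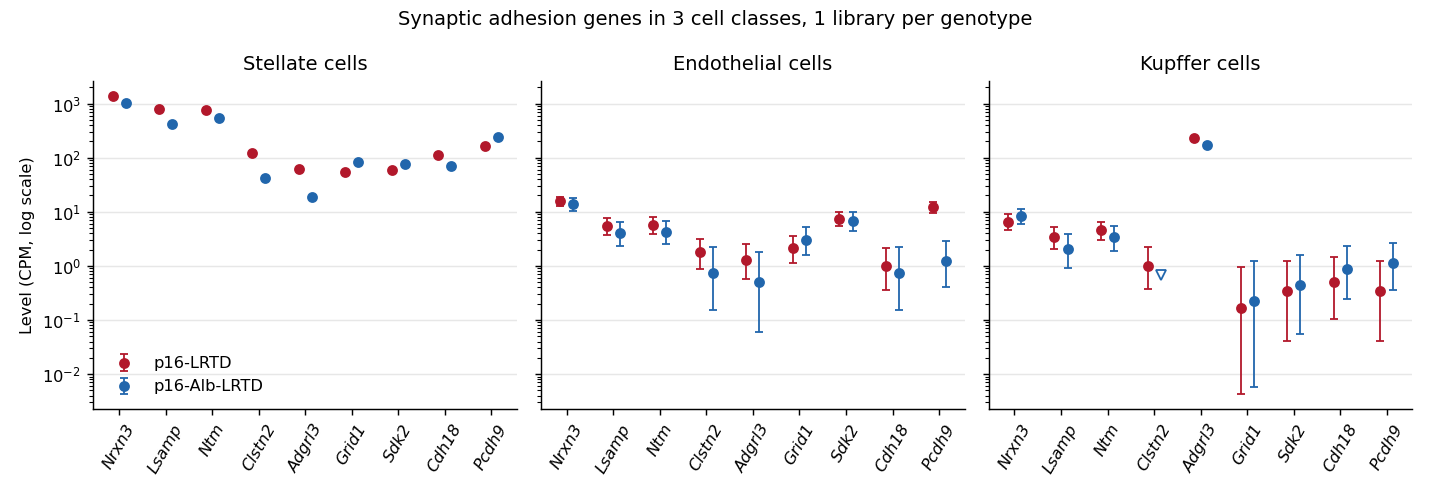
Level of each gene in HSCs, endothelial cells and Kupffer cells in CPM (log scale), with p16-LRTD in red and p16-Alb-LRTD in blue. Bars are 95% Poisson intervals for counting error, and the open triangle is the level that 3 counts would give for Clstn2, which had no UMI in Kupffer cells of p16-Alb-LRTD. Levels are higher in HSCs than in the other classes, except for Adgrl3, which stands at 227 and 171 CPM in Kupffer cells.

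Within the HSCs the 9 genes were spread unevenly. The 10% of cells with the highest level of a gene held 27.4% of the Nrxn3 UMIs in p16-LRTD and 32.2% in p16-Alb-LRTD, but 63.8% and 88.6% of the Clstn2 UMIs. For Grid1 this share was 71.2% and 55.7%, and for Pcdh9 63.5% and 62.9%. Without thinning, Clstn2 was seen in 35.3% and 17.1% of HSCs and Nrxn3 in 95.1% and 89.5%. The share in the highest 10% tends to rise as a gene is seen in fewer cells, and that part of these contrasts was not tested. The median HSC had 3.89 Lsamp UMIs per 10000 in p16-LRTD and 0.55 in p16-Alb-LRTD, while the cell at the 90th percentile had 27.0 and 12.9. Many HSCs thus held little Lsamp beside a minority with much of it.

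Lsamp, Clstn2 and Adgrl3 on one side and Grid1 and Sdk2 on the other were seen in the same HSC less often than independence gives. For each of the 36 pairs of genes, the number of cells with a UMI of both was set against the number that independence would give, with all cells thinned to 5000 UMIs. In 6 pairs the observed number was under 0.5 times the expected in both libraries. These were exactly the 6 pairs of Lsamp, Clstn2 or Adgrl3 with Grid1 or Sdk2. The genes were picked partly for how they differed among stellate cells. The same ratio was not measured for pairs of other genes seen in a similar share of HSCs. Whether such counts of pairs are particular to the genes picked was therefore not tested. Clstn2 and Grid1 were seen together in 57 cells of p16-LRTD against 274 expected, and in 24 cells of p16-Alb-LRTD against 155 expected. This was the lowest pair in each library, at 0.21 and 0.15 times the expected number. Clstn2 and Sdk2 came to 0.27 and 0.24, Adgrl3 and Grid1 to 0.30 and 0.38, and Adgrl3 and Sdk2 to 0.34 and 0.37. The pairs with Lsamp were the least depleted of the 6, at 0.37 and 0.45 with Grid1 and 0.43 and 0.46 with Sdk2.

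Genes on the same side were found together more often than independence gives. Lsamp and Clstn2 were seen together in 1.59 and 2.03 times the expected number of cells, Lsamp and Adgrl3 in 1.53 and 1.88 times, and Clstn2 and Adgrl3 in 2.10 and 3.08 times. Grid1 and Sdk2 reached 2.12 and 1.62 times. Those 4 pairs were the ones over 1.5 in both libraries, again without a background from pairs of other genes. Of all 36 pairs, 17 were over 1 in both libraries, 17 were under 1 in both, and 2 differed in direction.

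The pairs of Ntm and Nrxn3 stayed closer to independence by this measure, while those of Pcdh9 were mixed. Ntm was seen with Grid1 in 0.71 and 0.79 times the expected number and with Lsamp in 1.22 and 1.29 times. Nrxn3 ranged from 0.86 to 1.19. A gene seen in most HSCs cannot rise far above 1 by detection. Nrxn3 was seen in 88.2% and 80.3% of the thinned cells and Ntm in 75.6% and 66.3%, so their levels are given below. Pcdh9 went with Grid1, at 1.64 and 1.49, and against Clstn2, at 0.74 and 0.53. Cdh18 stayed near independence with all 8 partners, between 0.79 and 1.13. The side with Lsamp, Clstn2 and Adgrl3 was thus made of genes that were lower in p16-Alb-LRTD, and the side with Grid1 and Sdk2 of genes that were higher there.

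**Figure D3:**
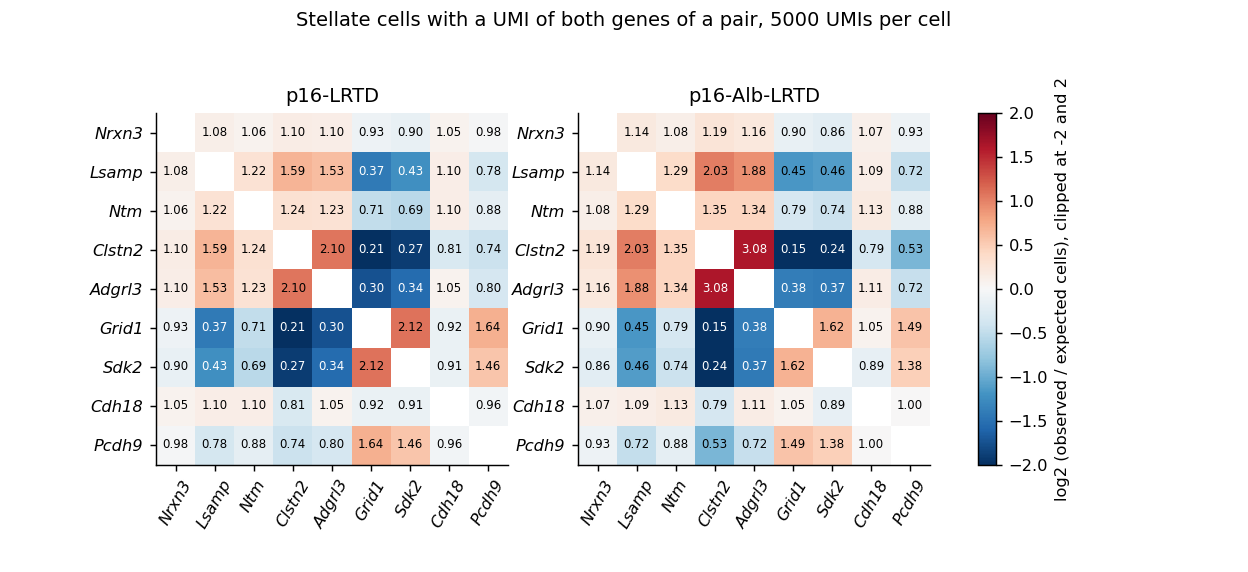
Number of HSCs with a UMI of both genes of a pair over the number expected under independence, in p16-LRTD and p16-Alb-LRTD, after thinning to 5000 UMIs per cell. Printed values are the ratio and colours its log2, blue for depleted and red for enriched pairs, with 0.21 and 0.15 for Clstn2 and Grid1.

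The same split appeared in levels as well as in detection. In the 10% of p16-LRTD HSCs with the highest Lsamp level, Clstn2 was at 517 CPM against 85.9 CPM in the remaining cells, while Grid1 was at 3.01 CPM against 58.2 CPM. In p16-Alb-LRTD these values were 199 against 25.1 CPM for Clstn2 and 12.5 against 90.1 CPM for Grid1. Conversely, in the 10% with the highest Grid1 level, Clstn2 was at 10.6 against 135 CPM in p16-LRTD and 3.96 against 46.9 CPM in p16-Alb-LRTD. Pcdh9 was higher in those cells, at 332 against 147 CPM and 490 against 216 CPM. Of the 785 p16-LRTD cells with the highest Lsamp level, 307 were also among the 785 with the highest Clstn2 level, and 4 were among the 785 with the highest Grid1 level. Of 662 such cells in p16-Alb-LRTD, these numbers were 270 and 7.

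By level, Ntm and Nrxn3 went with Lsamp and Clstn2 as well. Pearson's r of log-normalised levels over HSCs was highest, of the 36 pairs, for Lsamp and Ntm, at 0.62 and 0.53. In the 10% of cells with the highest Ntm level, Grid1 was at 14.4 against 57.6 CPM in p16-LRTD and 32.1 against 88.3 CPM in p16-Alb-LRTD, and Sdk2 at 14.3 against 64.6 CPM and 22.8 against 81.1 CPM. In the 10% with the highest Adgrl3 level, Grid1 was at 10.3 against 57.9 CPM and 36.7 against 87.7 CPM, so that in p16-Alb-LRTD Grid1 was lower relative to the remaining cells with high Ntm (0.36-fold) than with high Adgrl3 (0.42-fold). In p16-LRTD the order was the reverse, at 0.25-fold with high Ntm and 0.18-fold with high Adgrl3. Adgrl3 was sparse in p16-Alb-LRTD, seen in 11.9% of HSCs without thinning and at 0.50 UMIs per 10000 at the 90th percentile. The part of counting error in this order was not tested. For Ntm the split into sides depends on the measure. The pair counts leave it out, and the levels place it with Lsamp, Clstn2 and Adgrl3, against Grid1 and Sdk2. In the 10% with the highest Nrxn3 level, Clstn2 was at 356 against 97.2 CPM and 155 against 29.8 CPM, Lsamp was 2.71-fold and 3.23-fold higher, and Sdk2 at 0.42 and 0.48 times its level in the remaining cells.

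Counted as 2 sides, 53.8% (52.7 to 54.9) of thinned p16-LRTD HSCs held a UMI of Lsamp, Clstn2 or Adgrl3 and none of Grid1 or Sdk2, against 36.3% (35.1 to 37.4) in p16-Alb-LRTD. Cells with Grid1 or Sdk2 and none of the other 3 made up 19.8% (18.9 to 20.7) and 30.8% (29.7 to 31.9). Both sides were seen in 663 of 7836 cells and 595 of 6614 cells, where independence would give 1378 and 1191. The remaining 18.0% and 24.0% of the cells had none of the 5 genes at this depth. These sides were set from the pairs above, so the shares describe the split and add no evidence for it.

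HSCs were then clustered with the 9 genes and the related synaptic genes left out of the variable genes, so that the clusters were set without them. Among the 6 clusters with at least 50 cells per library, to which all comparisons of clusters here keep, Clstn2 was highest in cluster 2, at 471 and 196 CPM, and lowest in cluster 4, at 7.51 and 3.53 CPM. Lsamp, Ntm, Nrxn3 and Adgrl3 were highest in cluster 2 in both libraries as well. Lsamp ranged 71.0-fold over these clusters in p16-LRTD, from 32.6 to 2316 CPM, and 33.8-fold in p16-Alb-LRTD. Grid1 ran the other way, with 2.83 and 6.97 CPM in cluster 2, 123 and 176 CPM in cluster 1 and 124 and 147 CPM in cluster 4. Sdk2 and Pcdh9 were highest in cluster 4, at 167 and 196 CPM and at 370 and 489 CPM. Cdh18 had its own maximum in cluster 0, at 187 and 107 CPM.

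These clusters carry numbers and no cell type names. Cluster 2 was led, beside Clstn2 and Lsamp, by Notch3, Nmnat2 and Vtn, and also by Myh11 (434 and 226 CPM) and Clec4g (91.1 and 58.0 CPM), which are on the smooth muscle and endothelial lists. In cluster 2 the 4 smooth muscle genes summed to 719 and 513 CPM, with Des at 285 and 288 CPM and Cnn1 and Actg2 at 1 UMI each in each library, and over the 6 clusters that sum ranged from 167 to 719 CPM in the control and from 182 to 513 CPM in p16-Alb-LRTD. The 5 endothelial check genes summed to 474 and 475 CPM in cluster 2, of which Eng gave 378 and 413 CPM, while Cdh5, Pecam1 and Lyve1 were each at 2.09 CPM or less. The part of those cell types in cluster 2 was not tested. Cluster 1 was led, beside Grid1 and Sdk2, by Inmt, Podn and Greb1l, and cluster 0 by Galnt14, Egfem1 and Hhip. Cluster 4 was led by Wt1, Fbn2 and Gas6. It held 543 and 598 cells and the highest Col1a1 level of the 6 clusters, at 7697 and 1902 CPM. Wt1 is on the list of 6 mesothelial or portal fibroblast markers, which summed to 788 and 612 CPM in cluster 4 against 106 and 73.5 CPM over all HSCs. Wt1 gave 415 and 396 CPM of that sum and Dpt, the matrix protein dermatopontin, 373 and 215 CPM, while Upk3b, Gpm6a and Pi16 were each at 0.34 CPM or less and Msln was at 0. The part of such cells in cluster 4 was not tested. Without cluster 4, Grid1 had a log2 ratio of 0.68 and Pcdh9 of 0.54, and 6 genes were still lower. Of the 6 depleted pairs, 5 stayed under 0.5 in both libraries.

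**Figure D4:**
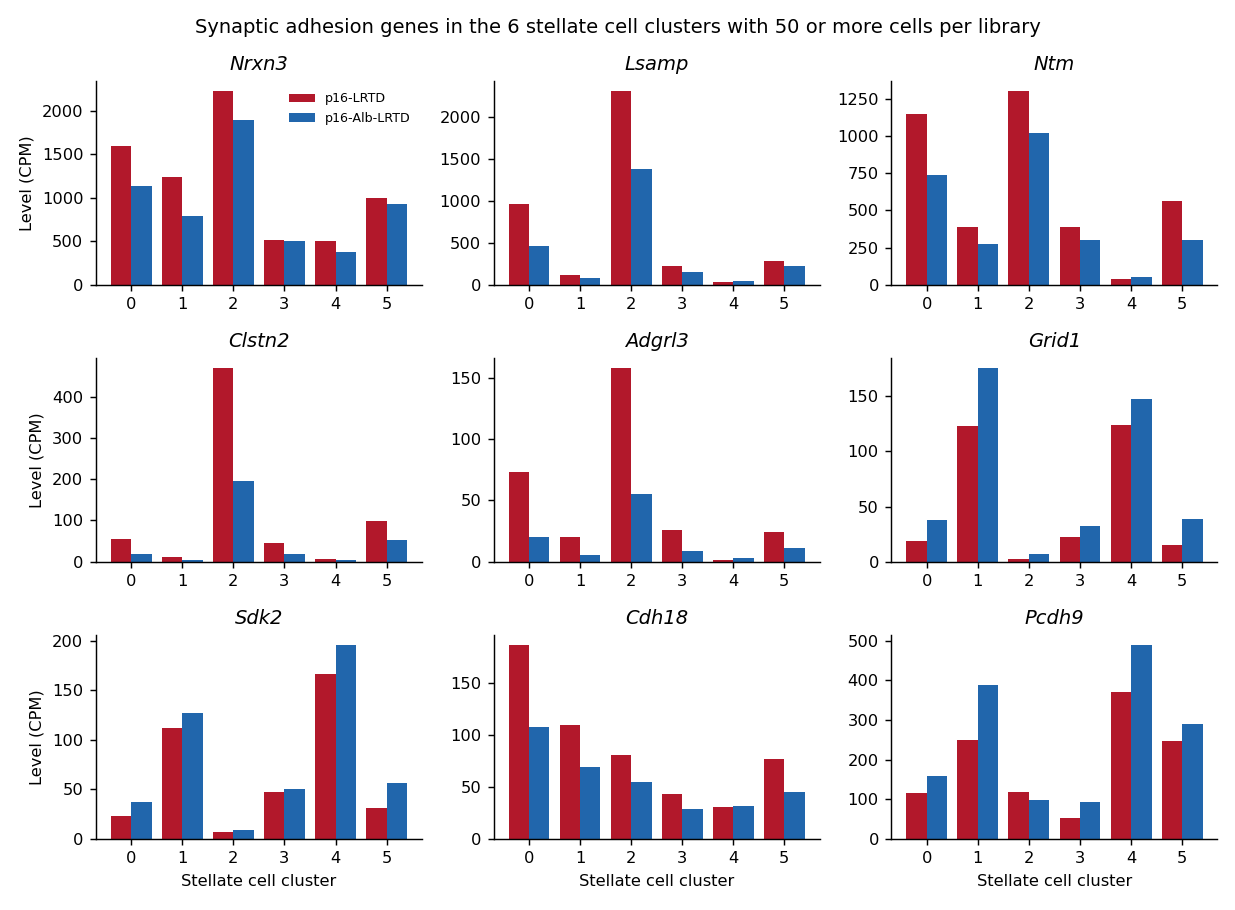
Level of each gene in CPM in the 6 HSC clusters with at least 50 cells per library, with p16-LRTD in red and p16-Alb-LRTD in blue, 1 library each and no error bars. Lsamp, Clstn2, Adgrl3, Ntm and Nrxn3 peak in cluster 2, where Grid1 is at 2.83 and 6.97 CPM, and Cdh18 peaks in cluster 0.

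With the expected number summed within each cluster, much of the depletion was gone. The 6 depleted pairs then lay between 0.55 and 0.83 times the expected number, and none was under 0.5 in both libraries. Of the 17 pairs under 1 in both libraries, 14 were under 1 within clusters as well, and the 17 pairs over 1 all stayed over 1. Clstn2 and Adgrl3, the most enriched pair in p16-Alb-LRTD, went from 2.10 and 3.08 to 1.23 and 1.32.

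**Figure D5:**
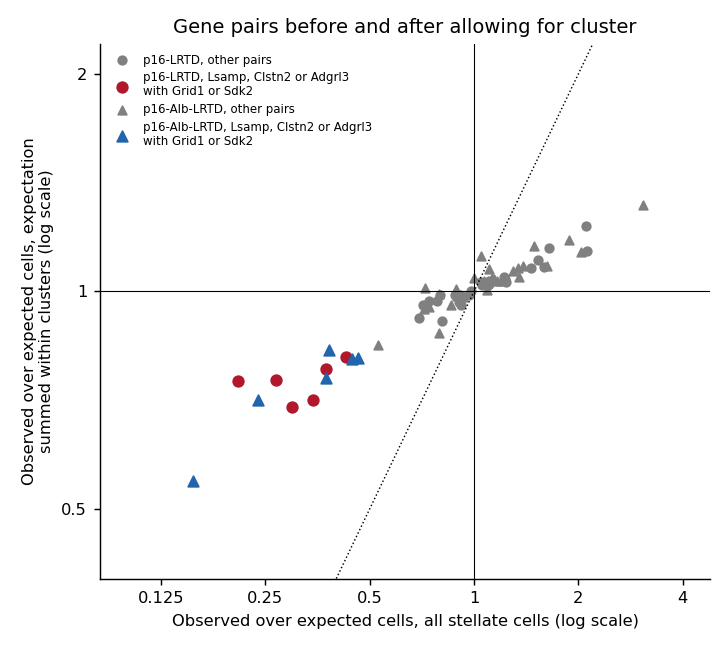
Observed over expected number of HSCs with both genes, for 36 pairs in p16-LRTD (circles) and p16-Alb-LRTD (triangles), with the expectation over all HSCs on the horizontal axis and summed within clusters on the vertical axis (log scales). Coloured points are the 6 depleted pairs, which move up to between 0.55 and 0.83, and the dotted line marks equal values.

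The differences between the libraries were also seen inside the clusters. Clstn2 and Nrxn3 were lower in p16-Alb-LRTD in 6 of the 6 clusters with at least 50 cells per library, and Grid1 and Sdk2 were higher in 6 of 6. The clusters are parts of the same 2 libraries, so they do not repeat the comparison. Over all HSCs 60.7% of the genes tested were lower, and the share within each cluster is not given here. In cluster 3 the interval of the log2 ratio took in 0 for Nrxn3 (-0.07 to 0.03) and for Sdk2 (-0.08 to 0.25). Lsamp, Ntm, Adgrl3 and Cdh18 were lower in 5 of 6, with cluster 4 as the exception in each case. In cluster 4 Lsamp was at 32.6 and 40.7 CPM and Ntm at 37.1 and 54.3 CPM, the lowest levels of these genes in any of the 6 clusters, and the intervals of Adgrl3 (-0.10 to 1.66) and Cdh18 (-0.14 to 0.29) took in 0. Pcdh9 was higher in 5 of 6 and lower in cluster 2, at 118 and 97.6 CPM. Cluster 2 held 25.5% of the HSCs in p16-LRTD and 16.3% in p16-Alb-LRTD, and cluster 1 held 23.6% and 29.2%. When both libraries were given the same shares of the clusters, the log2 ratio of Clstn2 moved from -1.50 to -1.24 and that of Lsamp from -0.94 to -0.81, while that of Grid1 moved from 0.62 to 0.55.

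The genes whose level followed these 9 most closely from cell to cell were then listed. Likeness was Pearson's r of log-normalised levels over the HSCs of a library, averaged over both, among 6342 genes with at least 20 CPM. The cells share library and depth, so r is a description. Lsamp was most like Clca3a1 (r of 0.69 in p16-LRTD and 0.56 in p16-Alb-LRTD) and Sod3 (0.67 and 0.57), an extracellular superoxide dismutase, followed by Myh11, smooth muscle myosin, and Lifr. Clstn2 was most like Mest (0.67 and 0.46), Myh11 (0.58 and 0.46), Cald1 and Tmem178, and Adgrl3 like Myh11, Piezo2, Mest and Itgb3, with r of 0.36 and 0.27 for Myh11. Among the genes most like Nrxn3 were Rbms3 (0.54 and 0.46), Prkg1 and Arhgap42, and among those most like Ntm were Vipr1 (0.63 and 0.53), Clca3a1 and Colec11.

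On the other side, Sdk2 was most like Alcam (0.52 and 0.49), Sparcl1 (0.50 and 0.50), Htra3 and Col1a1 (0.54 and 0.36). Grid1 was most like Sparcl1, Adamtsl2, Ano1 and Robo2, with r of 0.45 and 0.34 for Adamtsl2, and among the genes most like Pcdh9 were Sparcl1, Alcam and Plxna4, with r of 0.26 and 0.23 for Alcam. Cdh18 followed neither group and was most like Nkain2 (0.43 and 0.33), Ank3, Reln and Rgs5.

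Col1a1, the main fibrillar collagen chain of scar tissue, ran against Lsamp (r of -0.72 and -0.46) and with Sdk2 from cell to cell. Between the libraries Col1a1 measured 1950 CPM in the control against 504 CPM, for a log2 ratio of -1.95, so it was lower along with Lsamp and unlike Sdk2. Ngfr, the p75 neurotrophin receptor, went with Lsamp (0.60 and 0.47) and against Sdk2 (-0.45 and -0.38), and was at 171 and 124 CPM. Myh11 was at 150 and 73.8 CPM, and it is also on the list of 4 smooth muscle genes, which summed to 364 and 293 CPM, with Des at 213 and 219 CPM and Cnn1 and Actg2 each under 0.4 CPM. The part of smooth muscle cells in these values was not tested.

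Related synaptic genes outside the 9 were described by lists. Of 95 genes on 6 lists of partners and relatives, 33 reached 5 CPM on average in HSCs, and of these 25 were lower in the p16-Alb-LRTD library and 8 higher, with a median log2 ratio of -0.09 beside -0.05 for all genes tested. The 25 were 75.8% of the 33, where 60.7% of all genes tested were lower, and with TMM scaling, which turned Adgrl1 and Clstn1 to higher, these shares were 69.7% and 50.9%. Nrxn2 was at 116 and 137 CPM (log2 ratio 0.24) and Dag1, dystroglycan, a neurexin ligand, at 228 and 219 CPM (-0.06). Clstn3, a relative of Clstn2, was at 57.8 and 49.3 CPM (-0.23). The 6 genes measured on the neurexin list held 4 lower and 2 higher ones, with a median of -0.05.

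Both other latrophilins differed far less than Adgrl3. Adgrl1 was at 74.5 and 74.2 CPM (-0.01, interval -0.05 to 0.03) and Adgrl2 at 86.5 and 83.2 CPM (-0.06), and none of their FLRT and teneurin ligands reached 5 CPM on average. On the IgLON and immunoglobulin list, Iglon5 was at 22.1 and 19.1 CPM (-0.21) and Cadm3 at 105 and 96.0 CPM (-0.14). Cadm1 was at 53.0 and 25.9 CPM (-1.03), but it was at 1139 and 905 CPM in Kupffer cells, and the part of free Kupffer RNA in its HSC level was not tested.

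Among cadherins, 4 of 5 were lower, beside 60.7% of all genes tested, and the median was -0.55, the lowest of the 6 lists. Cdh2, N-cadherin, was at 836 and 572 CPM (-0.55) and Pcdh18 at 90.7 and 60.9 CPM (-0.58), while Pcdh7, a protocadherin of the same delta family as Pcdh9, was at 450 and 466 CPM (0.05). Lrrc4c, the leucine-rich netrin-G ligand NGL-1, was at 463 and 220 CPM (-1.07) and with Cadm1 made up the 2 of 33 listed genes past 2-fold, beside 1.87% of all genes tested, while TMM scaling left Lrrc4c alone past it. On the same list Ptprs was at 86.1 and 80.9 CPM (-0.09). Of 10 scaffold genes measured, 8 were lower, beside 60.7% of all genes tested, and none passed 2-fold, beside 1.87%, with Magi2 at 317 and 300 CPM (-0.08), Magi1 at 293 and 235 CPM (-0.32) and Gphn, gephyrin, at 368 and 401 CPM (0.12).

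Gene length was set beside these ratios. Among 291 other genes of at least 300 kb that were tested in HSCs, the median log2 ratio was 0.01, and 2.75% were lower by 2-fold or more beside 0.943% of all genes. The share of UMIs from 560 long genes outside the 9 and the lists was 7.57% in p16-LRTD and 7.75% in p16-Alb-LRTD. Of 3 nuclear RNAs, Malat1 was at 17468 and 19169 CPM (log2 ratio 0.13), Neat1 at 123 and 200 CPM (0.70) and Meg3 at 6.89 and 10.9 CPM (0.66), and their part in the ratios of the long genes was not tested. From cell to cell the long-gene share went with Nrxn3 (r of 0.46 and 0.26) and Lsamp (0.37 and 0.18) and hardly with Sdk2 (-0.01 and 0.12). For Clstn2 r was 0.23 and 0.08, for Adgrl3 0.20 and 0.12 and for Grid1 0.08 and 0.21. In p16-Alb-LRTD these values did not follow the 2 sides. Cells were also split at the median of that share. In the cells above it 5 of the 6 depleted pairs remained under 0.5 in both libraries, and in the cells at or below it all 6.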

How the data were processed

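HSC preparations of both genotypes were profiled, 1 library each, and groups were taken from the genotype labels. Raw UMI counts, which the authors deposited for each gene and barcode, came from Cell Ranger 7.0.1 on mm10 (193746596 and 162219167 UMIs). Whether intronic reads were counted is not given in the sources used here.

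Following the study's limits, barcodes were kept at a mitochondrial share of at most 5%, 2000 to 7000 genes and at most 50000 UMIs (9004 and 7416 barcodes). Barcodes passing several gates (245 and 221) were dropped. No doublet caller was run. Counts were summed per class, and genes needed 5 CPM on average. Intervals are 95% exact Poisson, conditional (ratios) and Clopper-Pearson (shares). Pairs used cells thinned to 5000 UMIs, which left out 16 and 7 HSCs. Clusters came from Seurat 5.3.0 (R 4.3.3; reciprocal PCA integration, 1965 variable genes, 30 dimensions, resolution 0.5). Other steps used Python 3.11.15, numpy 2.4.6 and scipy 1.17.1, with edgeR 4.0.16 for TMM factors only. The intervals and the pair measure were run on simulated Poisson counts, which checks the calculation and not the spread between cells or mice.

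The 9 genes and all lists were chosen with earlier results of these data known. Others named are the 4 genes most like each, up to 4 per related list by mean CPM, listed genes past 2-fold, and fixed marker genes. Clstn1, the nuclear RNAs, the cluster leaders and the antisense genes were named after their values were seen. Some genes that this rule names are not reported here.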

Additional observations from a re-analysis of the deposited data

Results flagged for a closer look

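The summed counts of Pcdh9 had ratios of opposite sign in 2 cell classes, which is what singled it out, but the endothelial value rests on 2 cells. In HSCs its log2 ratio of p16-Alb-LRTD over p16-LRTD was 0.53 (0.51 to 0.56), from 168 and 243 CPM. In endothelial cells it was -3.26 (-4.92 to -1.97), from 74 and 5 UMIs. The difference between the classes was not tested. In endothelial cells Pcdh9 passed the filter on low levels only through p16-LRTD (12.0 against 1.26 CPM). In p16-LRTD 46 of the 74 UMIs were in 1 endothelial cell and 66 were in 3 cells, of 10 cells with a UMI. The 2 cells with at least 5 UMIs held 63 of the 74, and Dcn, an HSC marker, stood at 4187 CPM in them, so these data do not establish an opposite direction in endothelial cells. With barcodes that pass several gates kept, the endothelial ratio was 0.68.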

How the results depend on the processing

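No paired analysis was possible because only 1 library stands for each genotype, and leaving out a library leaves no comparison. The limits are those of 2 libraries: intervals cover counting error, the spread between mice is unknown, and fewer cells of an HSC state and less RNA per cell cannot be told apart from summed counts, which is why values within clusters are given.

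Each of the 9 genes kept its direction in HSCs under 13 alternatives. Ratios ranged from -1.97 to -1.64 for Adgrl3, -1.78 to -1.24 for Clstn2, -1.17 to -0.81 for Lsamp, and 0.55 to 0.80 for Grid1, 0.24 to 0.49 for Sdk2 and 0.44 to 0.61 for Pcdh9. The number of genes lower stayed at 6, and the number lower by 2-fold or more was 2, or 3 with the mean of the CPM of each cell. The median log2 ratio of -0.52 has no interval of its own and was set against that of Ntm, the middle gene (-0.53 to -0.50). It moved beyond that to -0.48 without upper limits on genes and UMIs and to -0.62 with the mean of each cell. With TMM and with median-of-ratios scaling it was -0.47 each. Values of -0.56 in cells of intermediate depth and -0.49 with pooled cluster shares were also beyond it. So were -0.57 without cells with a UMI of Mki67, Top2a or Cdk1, and -0.55 without clusters 6, 7 and 8. The direction held in all of these.

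The number of pairs under 0.5 in both libraries was 6 after thinning to 3000 UMIs, 4 after thinning to 10000 UMIs, where the 6 pairs reached up to 0.57, and 0 when the expectation was summed within clusters. With at least 2 UMIs required it was 6, of which 5 were shared with the main setting. The alternatives within clusters, by share of long genes, without clusters 6, 7 and 8 and without cluster 4 were chosen after seeing the data. The endothelial ratio of Pcdh9 turned from -3.26 to 0.68 when barcodes that pass several gates were kept, and was -1.67 with a mitochondrial limit of 10% and -1.27 in cells of intermediate depth, and the cause was not tested.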
